A study of Homo sapiens with 24 samples.

Results

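Untreated RBE cells were compared with untreated SNU1079 cells in 12 of the 24 libraries of the series, the 6 DMSO libraries of each line as named by their titles. Both are human cholangiocarcinoma cell lines, and the labels call both IDH1 mutant and high in SULT1A1. Each line gave 3 libraries after 6 h and 3 after 16 h in DMSO, the solvent of the compound YC-1, so all cells compared here had the solvent and none had YC-1. The design text calls the 3 libraries of a group biological replicates. Each line stands for 1 tumour, so n counts cultures and a p-value measures the spread between cultures of a line. A separate time label contradicts the titles by giving 16 h for every DMSO library, and a fit without time was therefore also run. The 12 YC-1 libraries of the same lines were not used for any call and are given only beside the untreated values.

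Cholangiocarcinoma is a cancer of the bile duct, whose lining cells, cholangiocytes, carry the keratins KRT7 and KRT19 and share a fetal precursor with hepatocytes. Mutant IDH1 makes an abnormal hydroxy acid that inhibits oxygenases such as the TET enzymes. Cytosolic sulfotransferases such as SULT1A1 move a sulfonate group from the donor PAPS, made by PAPSS1 and PAPSS2, onto small molecules including drugs and hormones.

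Values are normalised counts as deposited by the authors. Summed over genes they came to 20891500 to 21580000 in the RBE libraries and 19005700 to 20306300 in the SNU1079 libraries (exact permutation test, two-sided, p = 0.005, the smallest that the 400 arrangements within times allow). Mitochondrial transcripts held 7.60% ± 0.46 of the sum in RBE and 7.64% ± 0.98 in SNU1079 (SD, n = 6, exact permutation test, p = 0.94). The first principal component held 84.1% of the variance and separated the lines. There were 2 libraries that stood apart. SNU1079 16 h replicate 1 lay away from the others on the second component (3.95% of the variance) and had a mean correlation of 0.964 with its group. RBE 16 h replicate 1 had raised values of genes high in SNU1079. Chosen were 23 genes high in SNU1079 and near 0 in the remaining 5 RBE libraries, where their median of 0.0328% of the SNU1079 level is therefore low by choice. In RBE 16 h replicate 1 they stood at a median of 0.913% (quartiles 0.845% and 1.38%), and 22 were above 0. Among genes of SNU1079, UGT1A9 stood there at 3.59% and NHS at 0. Sets of 4 to 45 genes, chosen in the same way for each other library, gave medians between 0 and 0.0996%. Whether RNA or reads of SNU1079 entered that library was not tested.

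Of 16569 genes tested, 2721 (16.4%) were higher and 2723 (16.4%) lower in RBE than in SNU1079, so 32.9% were called in either direction. A call needed an adjusted p under 0.05 and a difference of at least 1 on the log2 scale, which is at least 2-fold. A gene that missed either limit is written as not called. Without both libraries that stood apart, a choice made after seeing the data, the counts were 2656 and 2659. Differences of 8-fold or more were called for 792 genes higher and 663 lower. The 6 and 6 libraries did not overlap for 4790 of the 5444 called genes, where 50.3% of all genes tested did not overlap. In the YC-1 libraries, which the calls did not use, 4463 of the 5444 were called in the same direction and 9 in the opposite one. All log2 differences below are RBE minus SNU1079 of log2(normalised count + 1), and differences of low genes are understated by the added 1. Scaling the libraries to equal sums moved the median difference of all genes from 0.05 by -0.10, and the counts to 2409 higher and 3044 lower. By adjusted p alone, with no minimum size, 72.6% of genes passed, 38.1% higher and 34.5% lower.

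The widest differences were between a high level in one line and almost none in the other. MAP1B, which codes for a protein on microtubules of nerve cells, ran from 8846 to 12562 in the RBE libraries (median 11728) and from 0 to 12.05 in SNU1079 (median 5.59), a difference of 11.15 ± 0.45 (SE). PHGDH, the first enzyme of serine synthesis, ran from 2734 to 3338 in RBE and was listed at 0 in 4 SNU1079 libraries, with a highest value of 2.68. MGST1, a membrane glutathione transferase, had a mean of 3298 ± 117 in RBE and 1.60 ± 2.65 in SNU1079 (SD, n = 6). The libraries of the lines do not overlap for any of these genes. In the other direction, UGT1A1, the bilirubin glucuronosyltransferase, ran from 5484 to 7394 in SNU1079 (median 5814) and from 2.93 to 26.5 in RBE. FGF5, a fibroblast growth factor, ran from 1840 to 5510 in SNU1079 and from 1.88 to 32.0 in RBE. MAT1A, the liver form of methionine adenosyltransferase, had a mean of 1069 ± 137 in SNU1079 and 1.99 ± 3.42 in RBE. RBE 16 h replicate 1 held the highest RBE value of all 3, and the remaining 5 RBE libraries had at most 12.6 of UGT1A1, 9.75 of FGF5 and 2.64 of MAT1A. No RBE library reached the lowest SNU1079 library.

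A stricter description, with no test, counted genes with a mean of at least 100 in one line and under 1 in each of the 6 libraries of the other. It found 79 genes of RBE only and 15 of SNU1079 only, and without RBE 16 h replicate 1 the SNU1079 count was 32. Depth is unknown, so a limit of 1 may not be equally strict in both lines. Whether this affects the 79 and the 15 was not tested. Of the 79, 62 were listed at 0 in all 6 SNU1079 libraries, and of the 15, 10 were so in RBE. In the YC-1 libraries of the other line, 72 of the 79 and all 15 stayed under 10 in each library. FAR1, an enzyme that reduces fatty acids to alcohols for ether lipids, led the RBE genes with 2196 to 3544 (median 3184). It was listed at 0 in every untreated SNU1079 library. In the YC-1 libraries of SNU1079, FAR1 reached 14.5, so it was not among the 72. Its neighbours on chromosome 11 were present in both lines, BTBD10 at 1937 ± 112 in RBE and 795 ± 99.8 in SNU1079 and RRAS2 at 1828 ± 101 and 1461 ± 274 (SD, n = 6). The metallothionein MT1E (mean 2668), the clotting factor subunit F13A1 (1350), the chaperone DNAJC15 (1109) and the lymphatic growth factor VEGFC (181) were also listed at 0 in all SNU1079 libraries. Genes of SNU1079 only included NHS (mean 671), SPIN4 (187), the neural adhesion gene NCAM2 (175) and the receptor tyrosine kinase ROS1, at 103.1 to 148.9 in SNU1079 and at most 0.63 in RBE.

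Genes for zinc finger proteins made up 11 of the 79 RBE genes (13.9%) and none of the 15 SNU1079 genes, where they are 522 (3.15%) of all genes tested. On chromosome 19, 80 of 240 zinc finger genes were higher and 14 lower in RBE, while the other 870 genes of that chromosome gave 62 higher and 244 lower. Among zinc finger genes of other chromosomes, 38 of 282 were higher and 23 lower. ZNF429, ZNF100, ZNF43 and ZNF724 were all near 0 in SNU1079. They were neighbours on chromosome 19 among protein-coding genes with a mean of at least 50 in a line. Non-coding genes and genes below that mean were passed over, so an unbroken block was not shown. ZNF724 ran from 83.1 to 126.9 in RBE and was listed at 0 in SNU1079. Of the SNU1079 genes with a position, 5 of 12 (41.7%) lie on the X chromosome, where 3.17% of all tested genes do, and 11 of 28 (39.3%) did so without RBE 16 h replicate 1. In RBE, 7 X-linked genes from GAGE1 to TSPYL2, neighbours by the same rule, were near 0. TSPYL2, a nucleosome assembly factor, ran from 99.9 to 178.8 in SNU1079 and from 0 to 1.42 in RBE. GAGE1 and its copies are near-identical, so its value is uncertain.

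The 250 bases before the start of FAR1, ZNF724 and TSPYL2 are shown because each gene was near 0 in one line and they stand for the 3 groups just described. They are from RefSeq on GRCh38.p14, 5′ to 3′ on the strand of the gene, with CG dinucleotides in capitals. The positions are chr11:13668418-13668667 (plus strand), chr19:23250395-23250644 (minus strand) and chrX:53082117-53082366 (plus strand). None of the 3 stretches overlaps an exon in GENCODE 29.
FAR1: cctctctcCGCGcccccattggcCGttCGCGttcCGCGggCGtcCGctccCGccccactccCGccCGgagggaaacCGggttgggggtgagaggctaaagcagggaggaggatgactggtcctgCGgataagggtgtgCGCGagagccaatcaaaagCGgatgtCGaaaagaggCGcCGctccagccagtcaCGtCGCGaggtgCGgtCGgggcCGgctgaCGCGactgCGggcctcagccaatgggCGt
ZNF724: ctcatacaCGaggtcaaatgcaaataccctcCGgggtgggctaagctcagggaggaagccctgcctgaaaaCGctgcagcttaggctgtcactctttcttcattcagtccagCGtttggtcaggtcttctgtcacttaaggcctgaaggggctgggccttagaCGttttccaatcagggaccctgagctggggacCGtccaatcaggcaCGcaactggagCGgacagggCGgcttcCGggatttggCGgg
TSPYL2: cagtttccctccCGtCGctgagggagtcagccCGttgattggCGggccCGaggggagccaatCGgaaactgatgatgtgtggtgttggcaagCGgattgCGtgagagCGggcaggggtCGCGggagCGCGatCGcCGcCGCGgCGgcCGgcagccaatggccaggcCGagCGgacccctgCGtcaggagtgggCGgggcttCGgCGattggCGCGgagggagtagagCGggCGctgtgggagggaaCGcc
FAR1 and TSPYL2 hold 30 CG each, and 12.2% of 27305 promoters in the RefSeq table hold as many. ZNF724 holds 11, the median of all promoters (quartiles 3 and 23). Methylation was not measured, and nothing about it follows from these counts. Only 67 of the 94 genes of one line (71.3%) matched the table, so no comparison of CG content between groups was made.

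SULT1A1, which the labels call high in both lines, did not pass the test between them. It ran from 1433 to 1848 in RBE (median 1610) and from 1236 to 1690 in SNU1079 (median 1439), a difference of 0.17 ± 0.08 (adjusted p = 0.0711) with overlapping libraries. SULT1C2 was the sulfotransferase with the widest difference, at 625 to 1240 in SNU1079 (median 884) and 2.17 to 13.8 in RBE (-7.36 ± 0.34). The highest RBE value of SULT1C2 was that of replicate 1 at 16 h, and the remaining 5 had at most 6.91. SULT1A2 was also lower in RBE, at 33.2 to 54.9 against 202.5 to 273.2 (-2.37 ± 0.14). SULT1A3 (-0.11), SULT1A4 (0.47) and SULT1B1 (-0.55) were not called. SULT1C4, SULT1E1, SULT2B1, SULT4A1 and SULT6B1 were below the filter in both lines, and SULT1C3 and SULT2A1 were at 0 in all 12 libraries. So 6 of the 13 cytosolic sulfotransferases were tested, none was higher and 2 were lower in RBE, and this 33.3% lies next to the 32.9% of all genes called.

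Levels per kb of exon place SULT1A1 first in both lines, with 49.7% of the summed level of the 6 tested genes in RBE and 32.0% in SNU1079. SULT1C2 held 21.5% in SNU1079 and 0.18% in RBE, and SULT1A2 held 20.1% and 5.32%. SULT1A1, SULT1A2, SULT1A3 and SULT1A4 resemble one another in sequence, SULT1A3 and SULT1A4 nearly identical, so reads may have been split between them and their shares are uncertain. ST6GAL2, the tested protein-coding neighbour of SULT1C2 on one side, had a mean of 684 in SNU1079 and 1.17 in RBE. Without RBE 16 h replicate 1 its RBE mean was 0.19. The next such gene on the other side, GCC2, had 1737 in SNU1079 and 1367 in RBE.

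The supply of the sulfonate donor differed by gene. PAPSS2, a PAPS synthase, was higher in RBE, at 1104 to 1507 (median 1410) against 179.4 to 364.4 (median 251.6) in SNU1079 (2.40 ± 0.14). PAPSS1, the other synthase, was not called at 0.39. The sulfate transporters SLC26A2 (-1.41) and SLC26A11 (-1.35) were lower in RBE. IMPAD1, the Golgi phosphatase that clears the spent donor, was higher (1.15). CTH, a cysteine-making enzyme, was lower (-1.31) with overlapping libraries. In all, 2 of 16 tested genes of sulfate supply were higher, 3 lower and 11 not called, and 31.2% called is close to the share over all genes. The YC-1 libraries gave the same call for 4 of the 5, with CTH not called there (-0.000893).

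Among the Golgi sulfotransferases, which sulfate sugar chains and proteins, 10 of 25 tested were higher and 8 lower in RBE, which is 72% called. UST, which sulfates uronic acid in chondroitin chains, had 175 against 5.46 (6.20, or 6.98 without SNU1079 6 h replicate 3) and HS6ST2, a heparan sulfate sulfotransferase, 699 against 170 (2.11), as means of RBE and SNU1079. HS3ST3B1 (8.71 against 307, -5.00), CHST9 (54.5 against 758, -3.69) and NDST1, which starts heparan sulfation (3743 against 9695, -1.36), were lower. Of 16 sulfatases and their activators tested, 3 were higher and 3 lower (37.5%, again near the background), and 4 of these 6 calls were also made in the YC-1 libraries. SULF2, which removes sulfate from heparan chains at the cell surface, ran from 561.9 to 739.2 in RBE and was listed at 0 in all SNU1079 libraries. ARSD (7.79) and the steroid sulfatase STS (1.34) were also higher, and ARSI (-3.33) was lower.

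**Figure D1:**
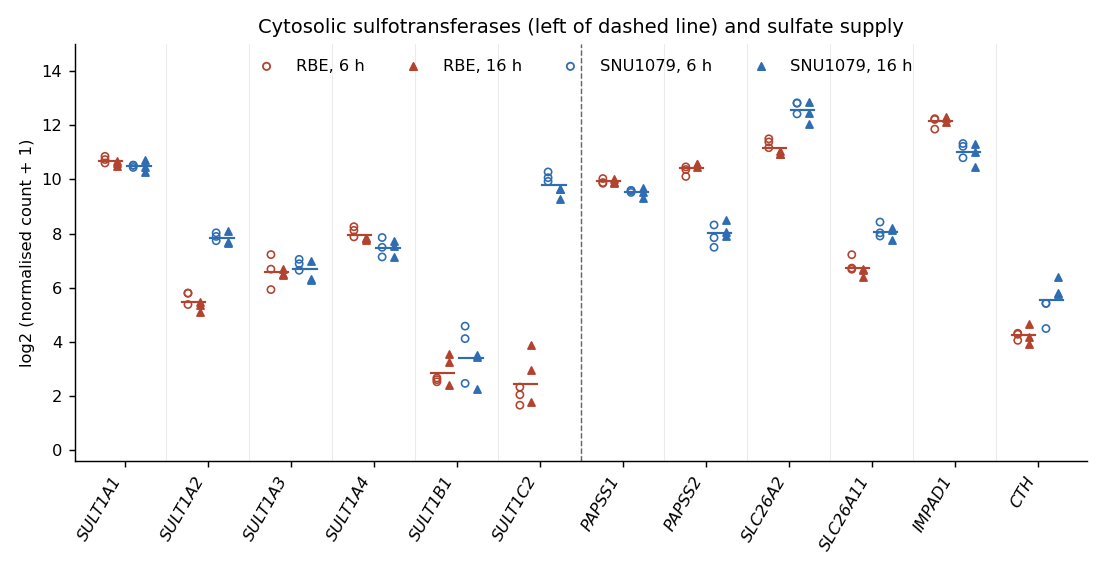
Each point is 1 untreated library, open circles 6 h and triangles 16 h, red RBE and blue SNU1079, with a line at the mean of 6. The vertical axis is log2(normalised count + 1). SULT1A1 overlaps between the lines, SULT1C2 and SULT1A2 are higher in every SNU1079 library, and PAPSS2 and IMPAD1 are higher in every RBE library.

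Genes were then described by lists of known function. A member that passed the filter on low values through 1 line alone had to differ, so the counts below describe the lists and are set beside the 16.4% called in each direction over all genes. Counts per list are given as tested members. CDH2, ZEB1, COL1A2, PSPH, SHMT2, MTHFD1L, LDHA, PKM, TET1, TET2, TET3, HLA-B, ONECUT1, APOH, CDH17, HOXB6, LYZ, SYCP3, the 4 zinc finger genes and TSPYL2 were named after their values were seen.

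**Figure D2:**
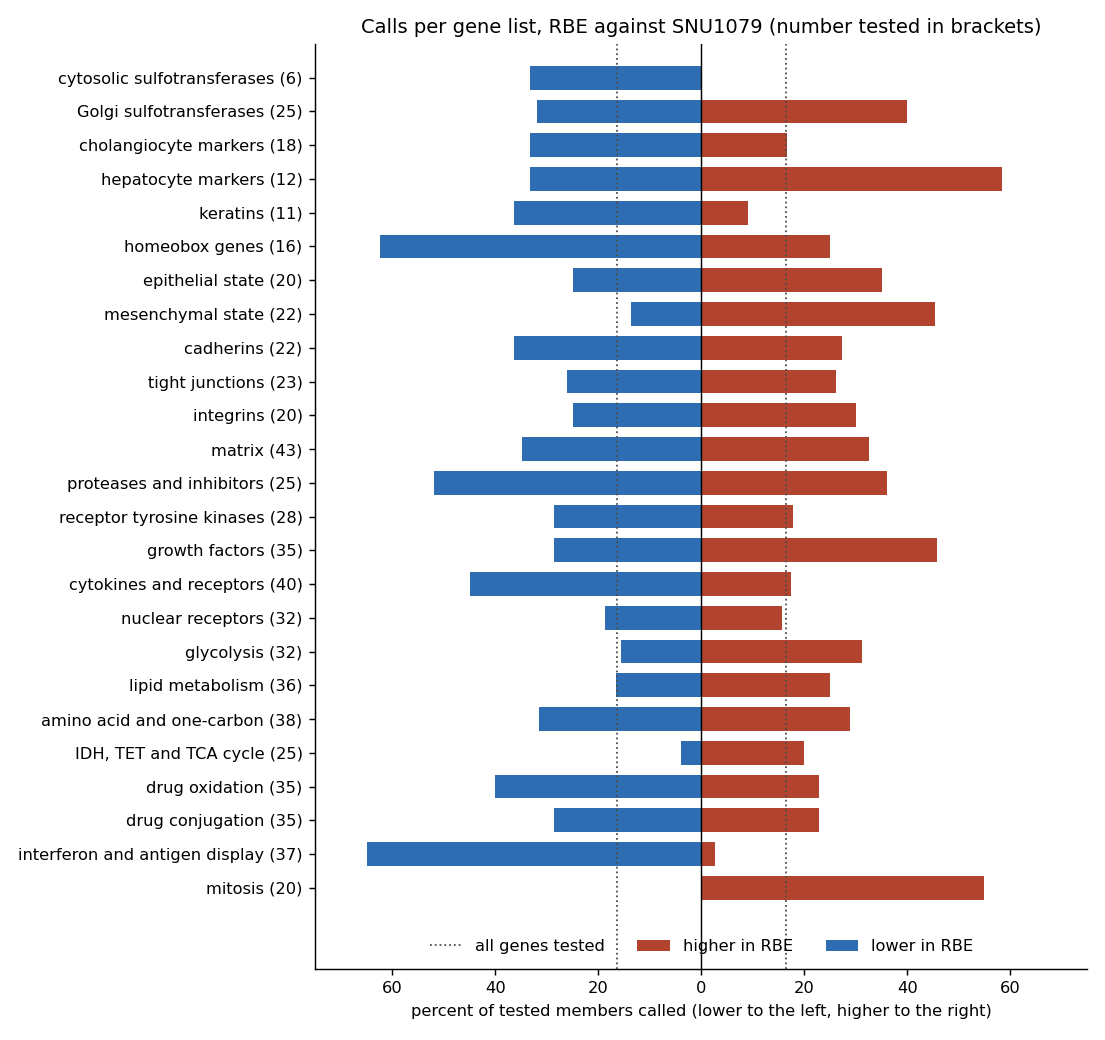
Bars give, for 25 gene lists, the percent of tested members called higher (red, to the right) and lower (blue, to the left) in RBE than in SNU1079. The number tested is in brackets, and dotted lines mark the 16.4% of all genes tested in each direction. Interferon and antigen display genes lie almost wholly to the left and mitosis genes wholly to the right.

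Both lines had cholangiocyte markers, and most that differed were lower in RBE. KRT7 was not called (-0.57 ± 0.09), with 21152 to 29343 in RBE (median 23739) and 25550 to 42416 in SNU1079 (median 38728). KRT19 spanned 5980 to 9414 in RBE, against 18122 to 25551 in SNU1079 (-1.53 ± 0.11). SPP1, the secreted matrix protein osteopontin, was 1445 to 1638 against 12031 to 13170. All RBE libraries lay below all SNU1079 libraries for KRT19 and SPP1. SOX9, a bile duct transcription factor, went the other way at 1363 to 1554 against 335 to 815.4 (1.52 ± 0.16), but had -0.42 in the YC-1 libraries. CLDN10, a claudin, ran from 130.2 to 177.6 in RBE and had at most 2.29 in SNU1079. In all, 3 of 18 were higher, 6 lower and 9 not called. The summed level of the marker list was 46518 to 57066 per RBE library and 81045 to 108716 per SNU1079 library. CFTR, the chloride channel of bile ducts, had means under 1 in both lines.

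Defining hepatocyte genes were near 0 in both lines, with ALB, APOA1 and AFP at means under 1. Of the 32 listed, 12 were tested, of which 7 were higher and 4 lower in RBE. HNF4A, a master regulator of hepatocyte genes, ran from 122.1 to 174.8 in RBE (median 159.9) and was listed at 0 in 4 SNU1079 libraries, with at most 2.32. AMBP, a secreted protease inhibitor, was 420.5 to 627.1 against 34.1 to 53.9 (3.40 ± 0.12), and APOH 85.9 to 110.2 against 7.46 to 39.5 (2.76). CPS1, the first urea cycle enzyme, was lower in RBE (187 against 567, -1.61). SERPINA1, alpha-1 antitrypsin, overlapped between the lines, at 1134 to 1259 and 1152 to 1331 (-0.08 ± 0.06, adjusted p = 0.196).

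Of 23 liver transcription factors tested, 5 were higher and 4 lower (39.1% called, where 32.9% of all genes were). Their median of 0.03 turned to -0.07 when libraries were scaled to equal sums and to -0.04 by quantiles. NR5A2, a nuclear receptor of liver and pancreas, was higher (525.7 to 887.8 against 176.3 to 485.9, 1.45). GATA6 (-1.86), FOXA1 (-1.02) and ONECUT2 (-1.59) were lower. FOXA1 fell just short of 2-fold without RBE 6 h replicate 3 or without SNU1079 6 h replicate 2, at -0.996 and -0.9997. ONECUT1 had a mean of 0 in RBE and 12.9 in SNU1079. FOXA2 (0.53) and GATA4 (-0.36), which work beside HNF4A in liver, were not called. OLFM4, a marker of intestinal stem cells, ran from 139.6 to 190.6 in RBE and had at most 2.16 in SNU1079, and CDH17, an intestinal cadherin, was also higher (68.4 against 14.5, 2.23).

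Keratins other than KRT7 and KRT19 separated the lines by KRT81, a hair keratin, at 1099 to 1520 in RBE and 11580 to 20431 in SNU1079 (-3.65 ± 0.13). Per kb of exon, KRT81 held 24.1% of the summed level of 11 tested keratins in SNU1079 and 3.12% in RBE. KRT19 held 27.4% and 15.6%, and these shares too depend on the annotated exon length. Of the 11, 1 was higher, 4 lower and 6 not called. KRT81 and KRT86 resemble each other in sequence, which makes both values uncertain.

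Homeobox and other lineage factors differed in both directions. Of 42 listed HOX, PBX and MEIS genes, 16 were tested, of which 4 were higher and 10 lower in RBE. PBX3, a HOX cofactor, was higher (1.31). HOXB7 had 180.4 to 270.9 in SNU1079 and at most 7.65 in RBE (1.31 without RBE 16 h replicate 1), while its neighbour gene HOXB6 was higher in RBE (76.3 against 6.26, 3.70). Of 60 other lineage factors listed, 32 were tested, of which 16 were higher and 7 lower. The chromatin organiser SATB1 (149.4 to 328.9) and the forkhead factor FOXQ1 (93.3 to 156.1) were listed at 0 in every SNU1079 library. HMGA2, an architectural factor of fetal cells, had 4069 to 5178 against 499.9 to 2291 (1.80), and PAX6, an eye and pancreas factor, was lower (-2.86). Cancer testis genes are normally silent outside the germ line. Of 33 listed, 16 were below the filter, 9 were at 0 in all 12 libraries and 2 were not matched. Members near 0 in RBE passed the filter only through SNU1079, so their calls were set by it. The 6 tested were all called, 5 lower and 1 higher in RBE, where 16.4% of all genes were called in each direction. The higher one, SYCP3 of the meiotic chromosome axis (12.2 against 5.52, 1.37), was no longer called without any 1 of 6 libraries, RBE 16 h replicates 1 and 2, RBE 6 h replicates 1 and 3, SNU1079 16 h replicate 1 and SNU1079 6 h replicate 2. MAGEA1 ran from 1365 to 1782 in SNU1079 and from 0 to 13.9 in RBE, where the 13.9 was in 16 h replicate 1 and the remaining 5 had at most 0.73. MAGEA and GAGE copies are hard to tell apart by reads.

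Of genes of other cell types, 5 of 16 leukocyte markers and 7 of 16 stromal and endothelial markers were tested. The leukocyte list summed to 1278 to 1640 per RBE library and 1408 to 1622 per SNU1079 library. In each library 3 or 4 of its members were at 10 or more. Of the 5 tested, 2 were higher in RBE, 1 lower and 2 not called. PTPRC and CD3E had means of 3.57 and 0 in RBE and 0.71 and 0.32 in SNU1079. LYZ, 1 of the 2 higher in RBE (48.7 against 0.55), held only a small part of the summed level. The other higher member and the lower one are not reported here. The stromal and endothelial list summed to 794 to 1009 in RBE and 2849 to 4871 in SNU1079. COL1A1, the main chain of type I collagen, made up most of it in SNU1079, at 2007 to 3808 against 22.3 to 59.4 in RBE (-6.23 ± 0.24). Its partner chain COL1A2 had means of 0.33 in SNU1079 and 9.14 in RBE, and COL3A1 was under 1 in both.

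RBE expressed E-cadherin and SNU1079 hardly did. CDH1, the epithelial cadherin, ran from 506.9 to 712.3 in RBE (median 583.3) and from 0 to 25.1 in SNU1079 (median 3.02), a difference of 7.33 ± 0.69, or 7.98 without SNU1079 6 h replicate 2. EHF, an epithelial ETS factor, had 845 to 1828 against 2.68 to 12.7 (7.81 ± 0.29). Other epithelial genes were lower in RBE: LSR, a tricellular junction receptor, had 227.5 to 375.1 against 764.5 to 1730 (-2.20), ST14, a membrane protease, had -1.97 and ESRP2, an epithelial splicing factor, had -1.90. Its relative ESRP1 was under 1 in both lines. Of 20 epithelial genes, 7 were higher, 5 lower and 8 not called.

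Mesenchymal genes were present in both lines. VIM, vimentin, lay between 46808 and 58568 in RBE and between 42189 and 49962 in SNU1079 (0.18 ± 0.06, not called), CDH2, N-cadherin, had means of 6938 and 4973 (0.48) and ZEB1, a repressor of CDH1, 1669 and 1026 (0.73). Of 22 mesenchymal genes, 10 were higher in RBE, 3 lower and 9 not called. TNC, tenascin C, had 5118 to 5596 against 96.0 to 154.1 (5.45 ± 0.10), and NT5E, the CD73 nucleotidase, had 8578 to 10348 against 478.7 to 715.7 (4.05 ± 0.09).

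Other cadherins gave 6 higher and 8 lower of 22. DSC3, a desmosomal cadherin of stratified epithelium, ran from 316.9 to 507.4 in RBE and was listed at 0 in SNU1079 except for 1 library at 6.28. CDH16, the kidney cadherin, had 77.6 to 108.6 in RBE and 3731 to 5188 in SNU1079 (-5.56 ± 0.10), and CDH6, another kidney cadherin, had -1.79. PCDH17 was at most 0.79 in RBE and 139.5 to 182.7 in SNU1079. The desmosomal gene DSG2 was not called (0.10 ± 0.09). The median of this list was 0.01 and turned to -0.09 under equal sums and to -0.05 by quantiles.

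At tight junctions, 6 of 23 genes were higher and 6 lower. CLDN2, the pore-forming claudin of leaky epithelia, had 2884 to 3821 in RBE libraries and 27634 to 33878 in those of SNU1079 (-3.18 ± 0.09), and the scaffold CGN, cingulin, had -2.17. JAM3, a junctional adhesion molecule (356.8 to 480.2 against 10.2 to 24.1, 4.28), was higher, and the scaffold TJP1 was not called (0.02 ± 0.07).

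Integrins, the receptors for matrix, gave 6 higher and 5 lower of 20. ITGA3, a laminin receptor chain, was lower at 19483 to 27939 in RBE and 47216 to 73629 in SNU1079 (-1.40 ± 0.12), beside ITGB5 (-1.41) and ITGB6, an epithelial chain that activates TGF-beta (-2.56). ITGA6, the other main laminin receptor chain, was higher in RBE at 6490 to 8598 against 2856 to 4085 (1.28 ± 0.08). ITGB1, the shared beta chain, was not called, with 71475 to 84978 and 67714 to 96792 (-0.09 ± 0.08). Only 6 of the 11 integrin calls were also made in the YC-1 libraries, where ITGA6 had 0.52.

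Of 28 immunoglobulin-type and tetraspanin adhesion genes, 8 were higher and 10 lower. The axon guidance receptor ROBO1 (408.7 to 647.2 in RBE, at most 1.28 in SNU1079), NCAM1 (196 to 265.1 against 2.20 to 8.31, 5.46) and L1CAM (90.2 to 168.5 against 0 to 11.4, 5.55), all known from nerve cells, were higher. ICAM1, the leukocyte adhesion receptor, had 5.19 to 29.9 in RBE and 459 to 1963 in SNU1079 (-6.00 ± 0.22), and PVR, a nectin-like receptor, had 2100 to 2452 against 9175 to 10622 (-2.15 ± 0.05). CD44 was not called (-0.09 ± 0.06).

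Matrix genes gave 14 higher and 15 lower of 43, or 15 and 14 with ribosomal protein genes as the scaling reference. NID1, a linker of the basement membrane, spanned 2122 to 3007 in RBE, against 0 to 2.28 in SNU1079. COL12A1 (537.3 to 889.9 against 0 to 17.5) and LAMA4 (134 to 192.2 against at most 1.26) were also at or near 0 in SNU1079. COL4A1, the main basement membrane collagen, was lower at 1693 to 1891 against 11878 to 18139 (-3.11 ± 0.07).

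Proteases and their inhibitors gave 9 higher and 13 lower of 25, and 3 were not called. PLAU, urokinase, ran from 7742 to 9754 in RBE (median 8673) and from 5.70 to 33.0 in SNU1079 (9.29 ± 0.28), and its receptor PLAUR had 2.64 ± 0.14. The urokinase inhibitor SERPINE2 had 914.1 to 1266 in RBE and at most 1.34 in SNU1079. MMP14, a membrane collagenase, had 1692 to 2133 against 6.53 to 22.7 (7.09 ± 0.22), with 3.79 in the YC-1 libraries. MMP7, matrilysin, was lower at 1072 to 1355 against 5929 to 8378 (-2.57 ± 0.08), and so was ADAMTS1 (-4.29 ± 0.35). All 3 plasminogen activation genes were separated between the lines in every library.

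Receptor tyrosine kinases gave 5 higher and 8 lower of 28, and EGFR and MET did not reach 2-fold over both times. EGFR lay between 7399 and 10315 in RBE and between 10788 and 21043 in SNU1079 (-0.73 ± 0.15), with a difference of -1.14 at 6 h and -0.31 at 16 h. MET, the receptor for hepatocyte growth factor, had 12923 to 16492 and 10334 to 13314 (0.37 ± 0.08). ERBB2 was called, at 822.3 to 1019 against 1695 to 2226 (-1.14 ± 0.06). FGFR2, a receptor altered by fusions in part of these cancers, had 6.50 to 10.96 in RBE and 84.9 to 174.9 in SNU1079 (-3.58 ± 0.20). INSR (-2.09) and DDR1, a collagen receptor (-1.36), were also lower, and NTRK3 (3.42), PDGFRA (3.30) and MST1R (1.64) were higher. Ephrins and their receptors gave 3 higher and 7 lower of 17, with EPHB2 at 1008 to 1473 against 6214 to 9334 (-2.66 ± 0.07) and its ligand EFNB2 higher in RBE (1.53 ± 0.15).

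Growth factors gave 16 higher and 10 lower of 35. The EGFR ligands EREG, epiregulin, and AREG, amphiregulin, ran from 2614 to 3880 and from 1200 to 1596 in RBE, against 12.5 to 54.5 and 1.42 to 10.8 in SNU1079 (7.01 ± 0.21 and 7.44 ± 0.33). These are neighbours on chromosome 4. BDNF, a neurotrophin, had 159.3 to 220.5 in RBE and was listed at 0 in 5 SNU1079 libraries, with 1.14 in the other one. PDGFD (-4.16 ± 0.12), the stress cytokine GDF15 (-3.61 ± 0.21) and NTN1, netrin (-3.71 ± 0.13), were lower, beside FGF5.

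In the TGF-beta and BMP family, 11 of 37 were higher and 6 lower, and the lines differed in their activin chains. INHBA ran from 74.2 to 214.7 in RBE (median 101.3) and from 4419 to 13185 in SNU1079 (median 8103), a difference of -6.08 ± 0.31. INHBB ran from 1100 to 1215 in RBE and had at most 0.98 in SNU1079. BMP2 (-3.18) and BMP4 (-3.27) were lower, and BMP6 (2.04) and the TGF-beta binding gene LTBP1 (4.08) were higher in RBE.

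WNT genes gave 11 higher and 8 lower of 34, and their median of 0.01 turned to -0.10 under equal sums and to -0.07 by quantiles. WNT5B ran from 410.5 to 1095 in RBE and had at most 0.84 in SNU1079. DKK1, a secreted WNT antagonist, was lower at 85.9 to 197.6 against 1040 to 2185 (-3.56 ± 0.12), as was AXIN2, a feedback target of the pathway (-2.12 ± 0.19), and DKK3 was higher (4.28 ± 0.18). Notch genes gave 3 higher and 6 lower of 23 (39.1% called, where 32.9% of all genes were). NOTCH2, a receptor needed for bile duct formation, had 4654 to 6891 against 11737 to 17298 (-1.29 ± 0.11), and LFNG, which modifies Notch receptors, had -2.47 ± 0.12.

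Cytokines and their receptors gave 7 higher and 18 lower of 40. CCL2, a monocyte chemokine, had 16.7 to 45.9 in RBE libraries and 619 to 1737 in those of SNU1079 (-4.92 ± 0.15), and the TNF receptor TNFRSF1B had 2.01 to 7.04 and 242 to 400.1 (-5.73 ± 0.25). CXCR4, a chemokine receptor, went the other way with 131.2 to 200.4 in RBE, and was listed at 0 in all SNU1079 libraries. IL18 was higher (1.46 ± 0.10). IL6ST, the shared receptor chain of the IL-6 family, was not called (0.00 ± 0.25).

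Among G protein-coupled receptors, 9 of 29 were higher and 11 lower. LPAR1, a receptor for lysophosphatidic acid, ran from 875.1 to 1130 in RBE and was listed at 0 in SNU1079 except for 1 library at 4.61. OXTR, the oxytocin receptor, had 2042 to 2835 against 17.8 to 62.0 (6.25 ± 0.24), and the nucleotide receptor P2RY2 was lower (-2.25 ± 0.20). Nuclear receptors gave 5 higher, 6 lower and 21 not called of 32 (34.4% called, close to the 32.9% of all genes). RORA had 131.5 to 218.9 against 0.57 to 9.82 (5.93 ± 0.40), while PPARD (-2.36 ± 0.11) and AHR, the dioxin receptor (-1.27 ± 0.12), were lower in RBE.

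**Figure D3:**
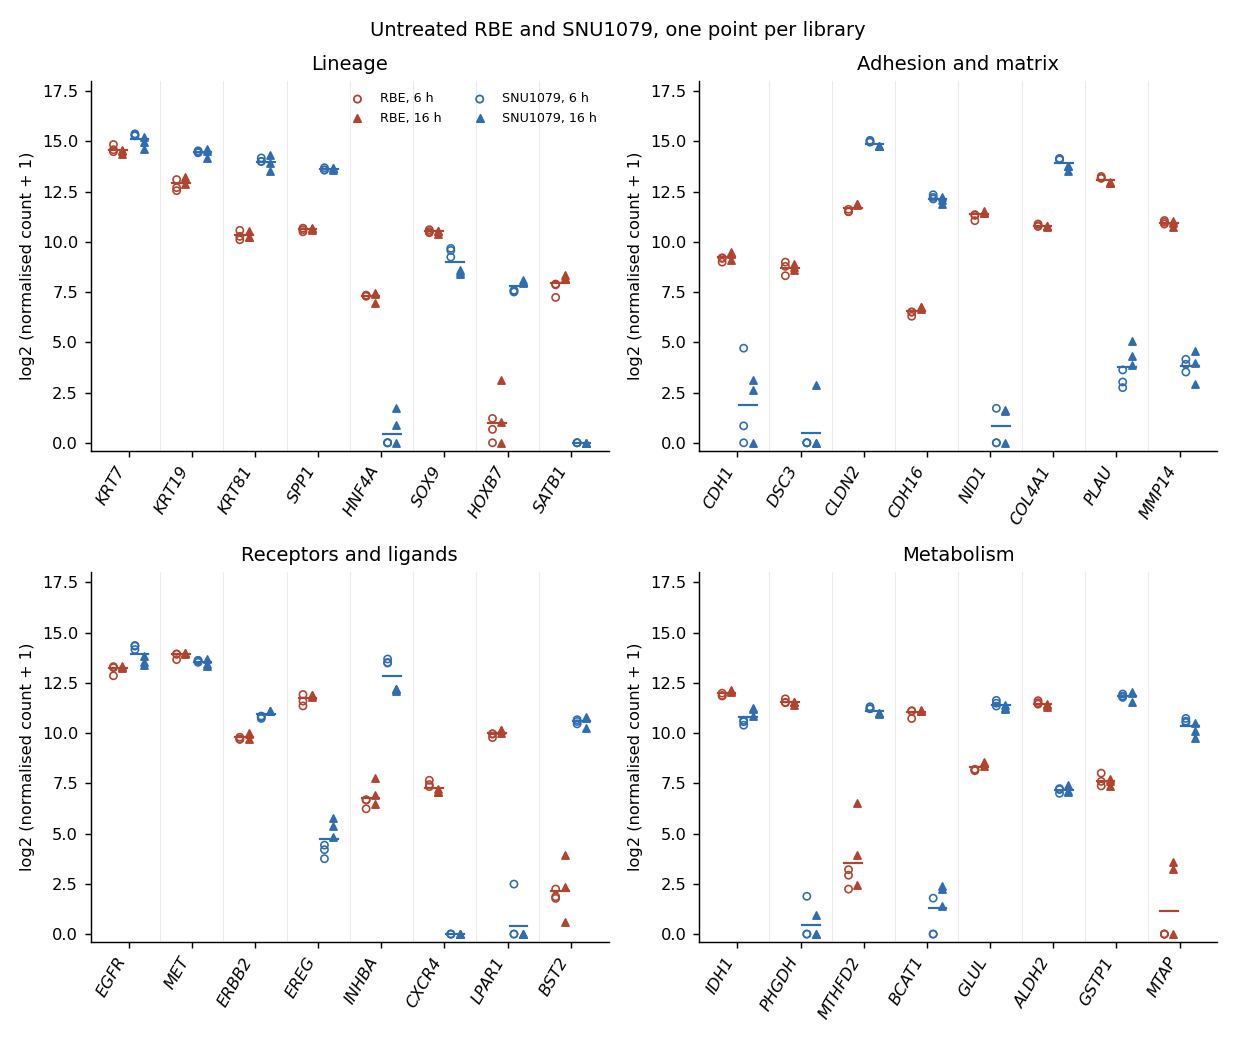
Each point is 1 untreated library (open circles 6 h, triangles 16 h, red RBE, blue SNU1079, line at the mean of 6), on a log2(normalised count + 1) axis, for 8 genes in each of 4 groups. MET and KRT7 lie close between the lines, whereas CDH1, PLAU, CXCR4, PHGDH and BCAT1 are low or at 0 in SNU1079 and HOXB7, BST2, MTHFD2 and MTAP are low or at 0 in RBE.

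Transcripts of serine and one-carbon enzymes differed between the lines at single genes, and neither proteins nor metabolites were measured. PHGDH was at or near 0 in SNU1079. Transcripts of the next enzymes were present there, PSAT1 at 1574 to 2564 (5547 to 6111 in RBE, 1.51 ± 0.09) and PSPH at 858 to 1296 (0.26, not called). RBE in turn was low in MTHFD2, the mitochondrial folate dehydrogenase, with 3.72 to 90.0 (median 7.42) against 1958 to 2540 in SNU1079, a difference of -7.56 ± 0.54. The 90.0 was in RBE 16 h replicate 1, without which MTHFD2 had a difference of -8.15. RBE had more of SHMT2 (6854 against 2743, 1.32) and MTHFD1L (1926 against 757, 1.35), which work beside MTHFD2 in mitochondria. BCAT1, which starts the breakdown of branched-chain amino acids, spanned 1693 to 2261 in RBE, against 0 to 4.32 in SNU1079. GLUL, glutamine synthetase, was lower in RBE at 279.3 to 381.3 against 2336 to 3166 (-3.05 ± 0.10). ASNS (1.63) and GPT2 (1.71), which make asparagine and alanine, were higher, but had 0.02 and 0.42 in the YC-1 libraries. In all, 11 of 38 amino acid and one-carbon genes were higher and 12 lower, or 11 and 13 under equal sums, and 12 of these 23 calls were also made in the YC-1 libraries. The median of 0.02 turned to -0.08 under equal sums.

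MTAP, the enzyme that salvages methionine from methylthioadenosine, was at or near 0 in RBE. It ran from 874.7 to 1698 in SNU1079 (median 1457) and in RBE it was listed at 0 except for 2 libraries, with at most 11.03. On chromosome 9, the next tested protein-coding gene, DMRTA1, was at most 0.87 in RBE and 74.9 to 144 in SNU1079. IFNE, on the other side, was at 0 in RBE. KLHL9 (-0.62), FOCAD (-0.42) and MLLT3 (-0.58) on one side were present in both lines and not called. CDKN2A, the cell cycle inhibitor beside MTAP, had means of 0 and 0.16, and CDKN2B was at 0 in all 12 libraries, so these transcripts were at or near 0 in both lines. Copy number was not measured. MAT1A, which makes S-adenosylmethionine, was also low in RBE.

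Glycolysis genes gave 10 higher and 5 lower of 32. PYGL, liver glycogen phosphorylase, lay between 652.9 and 729.2 in RBE and between 3.72 and 11.5 in SNU1079 (6.69 ± 0.21), and HK2, a hexokinase, had 308.8 to 381.3 and 59.2 to 151.1 (2.04 ± 0.18). LDHA (1.22) and PKM (1.16), the last steps to lactate, were higher in RBE, and GAPDH (0.66) and ENO1 (0.20) were not called. ALDOC, an aldolase (-3.78), and the regulators PFKFB2 (-2.85) and PFKFB3 (-1.43) were lower.

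Lipid genes gave 9 higher and 6 lower of 36, with a median of 0.06 that turned to -0.05 under equal sums. SQLE, of sterol synthesis (3583 to 3982 against 343.8 to 687, 2.78 ± 0.12), CPT1A, which admits fatty acids to mitochondria (1.81), and FABP5, a fatty acid carrier (2.15), were higher. SCD5 (-1.72) and SREBF1, a regulator of fatty acid synthesis (-1.16), were lower, and ACLY (-0.57) and SCD (0.36) were not called.

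IDH1 itself was higher in RBE, at 3683 to 4557 (median 4170) against 1344 to 2421 (median 1726), a difference of 1.19 ± 0.09 with no overlap. Normal and mutant alleles cannot be told apart in these values. IDH2 was not called (0.27). D2HGDH, which oxidises the hydroxy acid that mutant IDH1 makes, was lower at 119.3 to 183.9 against 422.3 to 450 (-1.61 ± 0.11). CS, citrate synthase (1.21), and IDH3A (1.36) were higher. Of the TET enzymes, TET1 was higher (51.3 against 9.32, 2.42) and TET2 (-0.35) and TET3 (-0.51) were not called. In all 5 of 25 genes of this group were higher and 1 lower (24% called, where 32.9% of all genes were), and the 6 calls were also made in the YC-1 libraries.

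Drug-oxidising enzymes gave 8 higher and 14 lower of 35. ALDH2, the main acetaldehyde dehydrogenase, had 2545 to 3133 in RBE libraries and 127.2 to 167.6 in those of SNU1079 (4.29 ± 0.08). AKR1C2, an aldo-keto reductase of steroids, was lower at 24.6 to 53.1 against 973.4 to 1779 (-5.15 ± 0.15), as was NQO1, a quinone reductase (2230 to 3354 against 5726 to 7303, -1.27 ± 0.07). CYP24A1 (3.89), CYP2S1 (6.16) and the carbonyl reductase CBR3 (6.06) were higher. AKR1C2 is one of a family of similar genes, and its value is uncertain.

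Conjugating enzymes gave 8 higher and 10 lower of 35, and all 18 calls were also made in the YC-1 libraries. GSTP1, a glutathione transferase, had 163.8 to 256.4 in RBE and 2978 to 4252 in SNU1079 (-4.24 ± 0.12). GSTM1 (176.1 to 225.6) and GSTT2 (123.8 to 205.8) were present in RBE, and in SNU1079 GSTM1 was at most 1.53 and GSTT2 was listed at 0. UGT1A6 (1.97 to 9.92 against 403 to 644.5, -6.34) and UGT1A9 were low in RBE together with UGT1A1, with which they share exons, so reads of the 3 cannot be told apart in full. HNMT, which inactivates histamine, was higher (332.5 to 368.6 against 1.83 to 8.73, 6.18). Of 24 drug transporters, 3 were higher and 5 lower, and this 33.3% called is close to the 32.9% of all genes. ABCB1, the multidrug pump, was lower at 282 to 372.4 against 1047 to 1447 (-1.90 ± 0.10), and the nucleoside carrier SLC29A2 had 139.2 to 268 in RBE and at most 1.94 in SNU1079. ABCG2 was below the filter.

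Interferon-stimulated and antigen display genes gave 1 higher, 24 lower and 12 not called of 37, with a median of -1.68, and 23 of the 25 calls were also made in the YC-1 libraries. BST2, tetherin, ran from 1238 to 1769 in SNU1079 and from 0.53 to 14.1 in RBE (-8.46 ± 0.40), with at most 4.05 there without 16 h replicate 1. PSMB9, an immunoproteasome subunit, had 69.2 to 89.0 in RBE against 587.2 to 1078 (-3.47 ± 0.13), and HLA-B had means of 632 and 2023 (-1.68). B2M, the shared light chain of class I molecules, was not called (0.26). HLA genes vary between people, and reads that differ from the reference may have been lost. Complement genes C3 (118 to 266.5 against 1831 to 2850, -3.78 ± 0.16) and CFB (-2.70) were lower, and the acute phase gene SERPINA3 (481.6 to 573.1 against 18.2 to 39.2, 4.06) and CLU, clusterin (1.96), were higher. The iron store chain FTL was lower (-1.06) and its partner FTH1 was not called (0.02).

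Genes recurrently altered in cholangiocarcinoma gave 4 higher, 2 lower and 23 not called of 29 (20.7% called, where 32.9% of all genes were). PBRM1, a chromatin remodelling subunit, spanned 780.5 to 1308 in RBE, against 199.4 to 315.8 in SNU1079 (2.23 ± 0.14). MYC was not called (0.26).

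Differences clustered by chromosome. On chromosome 13, 40.2% of tested genes were higher in RBE and 5.86% lower, with a median of 0.85, and chromosomes 9 (34.9% and 9.81%), 8 (32.0% and 9.30%) and 15 (27.8% and 6.90%) leaned the same way. Chromosomes 17 (5.41% higher and 28.0% lower, median -0.50) and 21 (4.97% and 25.5%) leaned the other way. Of windows of 50 neighbouring protein-coding tested genes, the lowest median was -0.95, from ACADVL to AURKB on chromosome 17 (7217125 to 8210600, GRCh38). There 2 were higher and 24 lower, and the median was -0.98 in the YC-1 libraries. DNA copy number was not measured.

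**Figure D4:**
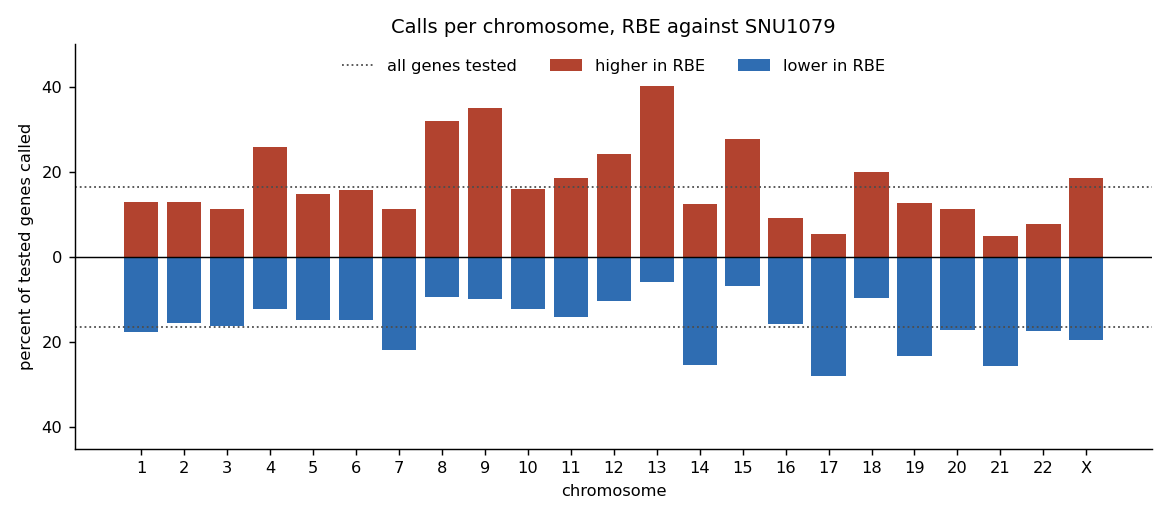
Bars give the percent of tested genes of each chromosome called higher (red, upward) and lower (blue, downward) in RBE than in SNU1079, with dotted lines at the 16.4% of all genes. Chromosomes 13, 9 and 8 reach furthest up, and chromosomes 17, 21 and 14 furthest down.

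The difference between the lines changed between the 6 h and 16 h libraries for 744 genes (4.49%). These times are those of the titles, which the time label contradicts. Every library had DMSO, so time in DMSO cannot be told apart from time in culture. The signed change, the difference at 16 h minus that at 6 h, was positive for 371 and negative for 373, but for 638 and 69 with ribosomal protein genes as the scaling reference and for 315 and 495 under equal sums. Leaving out 1 library at a time gave 361 (without RBE 16 h replicate 3) to 1708 (without SNU1079 16 h replicate 1), and leaving out both libraries that stood apart gave 1459. With replicate number within time as a block the count was 185. Among 20 mitosis genes, 18 passed this test, each with a negative change, and 9 did so with ribosomal protein genes as the reference. Their summed level was 112085 ± 4616 at 6 h and 105342 ± 3575 at 16 h in RBE, and 40764 ± 244 and 72888 ± 5884 in SNU1079 (SD, n = 3). The median difference of the 20 was 1.47 at 6 h and 0.54 at 16 h. CDC20, which activates the anaphase complex, went from 2.39 to 1.64, and AURKA, a spindle kinase, from 1.61 to 1.02. AURKB, a kinase of chromosome separation, changed sign, from 0.44 to -0.56. Over both times 11 of the 20 were called higher and none lower, where 16.4% of all genes were called higher. The count was 18 from the 6 h libraries alone, 4 from the 16 h libraries alone, and 7 with libraries scaled to equal sums.

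**Figure D5:**
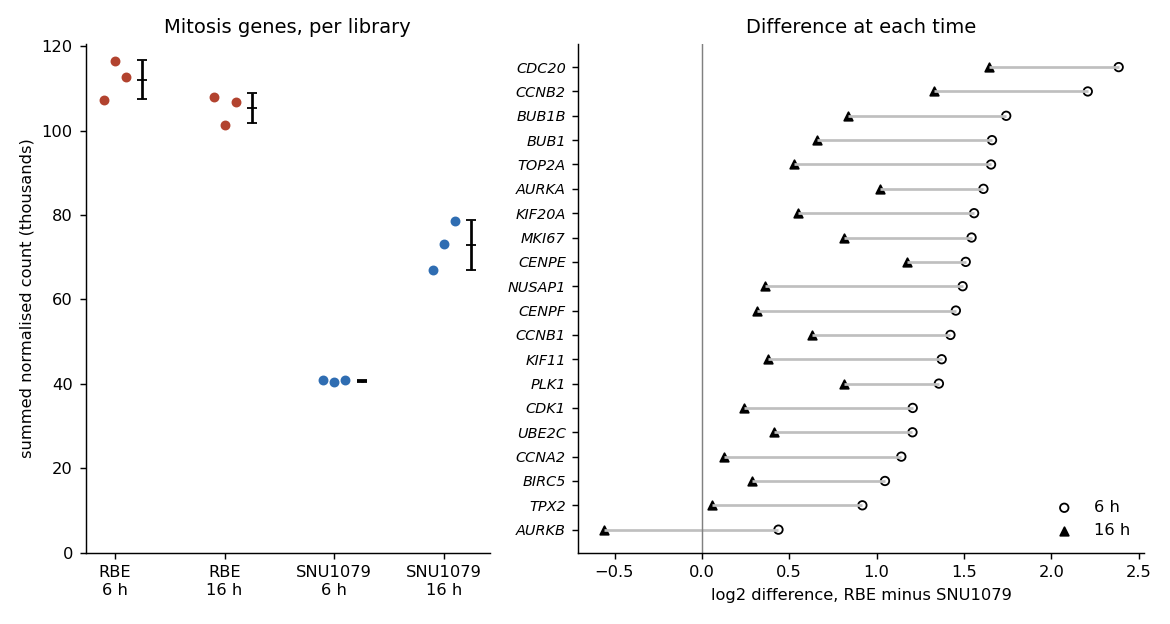
The left panel gives the summed normalised count of 20 mitosis genes in each library, with mean and SD of 3 to the right of the points. The right panel gives the log2 difference of each gene at 6 h (open circles) and 16 h (triangles). The SNU1079 mean is 40764 at 6 h and 72888 at 16 h while every RBE library is at 101262 or more, and each signed difference is lower at 16 h than at 6 h, below 0 for AURKB.

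Other named genes also changed with time. TRAF1 and BIRC3, both parts of TNF receptor signalling, were higher in SNU1079 at 6 h and not at 16 h, with differences of -1.96 and 1.06 for TRAF1 and -1.67 and 1.01 for BIRC3. The negative differences of INHBA, BMP2 and P2RY2 narrowed by 1.91, 1.32 and 1.29, and the change of BMP2 missed the threshold with replicate number within time as a block (limma, adjusted p = 0.0842). PLIN2, a coat protein of lipid droplets, had 588.6 to 697.1 in RBE and 0 to 12.3 in SNU1079. Its positive difference narrowed from 9.28 at 6 h to 6.46 at 16 h. With a pseudocount of 5 the change was -1.16 and missed the threshold (limma, adjusted p = 0.0503), so its size depends on values near 0. CCND1, cyclin D1, had a difference of -0.01 at 6 h and 1.35 at 16 h.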

How the data were processed

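RNA-seq libraries (TruSeq Stranded mRNA, RNA from the Qiagen RNeasy Plus kit, per the labels' protocols) of RBE and SNU1079 cells were used, 3 in each of 4 untreated groups. The authors deposited 1 table of normalised counts, a depth-scaled signal per gene. STAR, DESeq2 and hg38 are named in the submitters' processing notes, and how genes were counted (tool, strand, annotation) is not given in the sources used here. The deposited values are not whole multiples of 1 step, so reads and depth could not be recovered, and the number of libraries and their spread set the precision.

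Samples were grouped by their titles. Differences were tested with limma 3.58.1 in R 4.3.3 on log2(normalised count + 1), with line and time as terms and an intensity trend, for genes at 10 or more in at least 3 of 12 libraries. A call needed a Benjamini-Hochberg adjusted p under 0.05 and a log2 difference of at least 1. A second fit added the line-by-time term. Adjusted p-values cover all genes tested. The fit was tested on simulated data. Exon lengths and positions are from GENCODE 29 on GRCh38 and promoters from RefSeq. Tables and plots were made with pandas 2.3.3 and matplotlib 3.10.9 in Python 3.11.15.

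The comparison and its gene lists were chosen with earlier results of these data known. Genes were named by rule: the 15 highest and 15 lowest called genes with a mean of at least 100 and no overlap, up to 5 called genes per direction and 2 uncalled genes from each list, 5 genes per direction for time, 10 genes per line measured in one line only, and all sulfotransferase, sulfate supply, cholangiocyte, liver factor and 9p21 genes. A further set of genes fixed by name included IDH1, CDH1 and EGFR. Not all of these are described, and some results are not reported here. The alternatives changed the pseudocount, filter, scaling, variance model, covariates, times, threshold and libraries.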

Additional observations from a re-analysis of the deposited data

Results flagged for a closer look

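The difference between the lines at 16 h was set against that at 6 h with limma's line-by-time term (3 libraries per group). The values are the log2 difference at 16 h minus that at 6 h, and adjusted p was under 0.05 for each gene given. The change was 3.02 for TRAF1, 2.68 for BIRC3, 1.91 for INHBA, 1.36 for CCND1, 1.32 for BMP2 and 1.29 for P2RY2. It was 0.99 for SOX9, 0.92 for EFNB2, 0.83 for EGFR, 0.83 for TET3, 0.70 for MYC and 0.65 for ITGA3. Smaller positive changes were 0.57 for CLDN2, 0.54 for GLUL and 0.41 for PFKFB3. The change was -2.82 for PLIN2, -1.54 for PLAU, -1.25 for SERPINE2, -0.998 for AURKB, -0.74 for CDC20 and -0.59 for AURKA. It was -0.61 for PSPH, -0.54 for SCD and -0.46 for NT5E. Of these 24 genes, 15 missed the threshold under at least 1 alternative. EGFR, TET3, ITGA3, GLUL, PLAU, SERPINE2, SCD and NT5E did so when some single libraries were left out. With replicate number within time as a block, these 8 and AURKA, BMP2, MYC, PFKFB3 and PSPH missed it, with limma's adjusted p between 0.0621 and 0.137. CLDN2 missed it with all 24 libraries in the fit (limma, adjusted p = 0.0509) and PLIN2 with a pseudocount of 5 (limma, adjusted p = 0.0503). PLIN2 and SERPINE2 were near 0 in SNU1079. With a pseudocount of 5 their changes were -1.16 and -0.54, so the sizes given above depend on the pseudocount.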

How the results depend on the processing

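The numbers of genes higher and lower in RBE stayed within 1.5 times under each alternative except the thresholds: limma's treat test against a 2-fold difference gave 1642 higher and 1726 lower, and no minimum size gave 6306 and 5716. Leaving out 1 library at a time gave 2652 to 2818 higher and 2657 to 2817 lower. The number of genes whose line difference changed with time was less stable, at 3318 with sample weights, 361 with all 24 libraries in the fit, 361 to 1708 with 1 library left out and 1459 without both libraries that stood apart. Genes of RBE only numbered 124 with the other line allowed up to 3, 144 from a mean of 50 and 18 from a mean of 500, and 77 to 94 with 1 library left out. Genes of SNU1079 only numbered 37, 35 and 1 under the same changes, 15 to 32 with 1 library left out and 33 without both libraries. BIRC3 and TRAF1 reversed with the 16 h libraries alone, at 1.01 and 1.06. The cause of these changes was not tested.

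Replicate numbers do not pair the libraries: deviations of same-numbered libraries correlated at -0.064, 0.064 and 0.056 at 6 h and -0.13, 0.0014 and -0.020 at 16 h. With the replicate number as a block, 2721 genes were higher and 2718 lower, and with the number within time as a block the line-by-time count was 185. Depth is unknown, so a listed 0 sets no upper limit on a transcript.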
